A study of Mus musculus with 22 samples.

Results

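The response of Panc02 cells to natural killer (NK) cells was read from 23976 genes, chosen from 33066 with at least 1 count in the 4 co-culture or 2 Panc02 libraries. Panc02 is a mouse pancreatic ductal adenocarcinoma line, and NK cells are innate lymphocytes that kill tumour cells on contact and secrete cytokines. A gene was included when its mean level in NK cells cultured alone and in fresh NK cells was at most 2 times the larger of its co-culture and Panc02 means. Levels are given in CPM, the reads of a gene relative to those of all genes in the same library.

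Libraries of 3 groups entered the comparison, all from the same deposited count table. In the first group, Panc02 was cultured with primary spleen NK cells labelled as from a female donor mouse and received IL-2, the cytokine that sustains NK cells, for 24 h (2 libraries, female 1 and 2). The second group was the same with NK cells of a male donor (2 libraries, male 4 and 5). The third group was Panc02 in monoculture (2 libraries), for which the labels give no treatment and no time. The presence of NK cells, IL-2, the culture time and the set in which libraries were made therefore cannot be told apart. The labels put each co-culture library under both cell types without saying whether the cells were separated, and give no strain or age of the donors. They do not say whether numbered samples came from separate animals or cultures, so the p-values given here rest on a spread among samples that may be technical.

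NK RNA made up a few percent of each co-culture library. Over 296 genes restricted to NK cells, the co-culture level was 2.68% and 3.30% of that in NK monoculture with the female donor and 2.03% and 1.71% with the male donor. Summed over 14 NK cell markers, none of them among the chosen genes, the level was 612 to 754 CPM with the female donor, 382 to 446 CPM with the male donor and 20.5 to 23.7 CPM in Panc02 monoculture. Markers of other cells had lower sums in co-culture. For 9 T cell markers the sum was 7.11 to 7.29 CPM (female donor) and 3.24 to 4.66 CPM (male donor), against 0.52 to 0.81 CPM in Panc02, with Cd8a and Cd8b1 at 0. For 8 B cell markers it was 1.30 to 2.83 and 1.31 to 1.78 CPM against 0.14 to 0.17 CPM. For 11 macrophage markers it was 17.5 to 19.4 and 19.8 to 21.2 CPM against 16.3 to 16.7 CPM, with 6 of them at 0 in all libraries. For 8 neutrophil markers it was 3.30 to 5.19 and 6.00 to 22.2 CPM against 0.77 to 1.07 CPM, with Elane at 0. The 8 dendritic cell markers summed to 18.3 to 20.1 and 16.1 to 18.05 CPM against 8.78 to 9.95 CPM, with Xcr1, Siglech and Clec9a at 0. The 7 erythroid markers summed to 13.5 to 18.7 and 8.60 to 21.9 CPM against 0.59 to 0.88 CPM. The 7 endothelial markers summed to 7.53 to 8.68 and 3.43 to 3.68 CPM against 0.09 to 0.17 CPM, with Cdh5 and Emcn at 0. The part of these cells in the results was not tested. In such bulk libraries, fewer cells of a type and less RNA per cell cannot be told apart. Panc02 identity genes had high summed levels in both kinds of culture. Over 10 epithelial identity genes the sum was 3944 to 3971 CPM with the female donor and 3994 to 4004 CPM with the male donor. In Panc02 it was 4106 to 4162 CPM. The keratin gene Krt18 stood at 962, 958, 969 and 953 CPM in co-culture and 956 CPM in both Panc02 libraries. Epcam lay outside the rule because NK cells express it more, and the calls of Krt7, Krt8 and Krt19 are given below. Total counts were 34357879 to 46799030 per co-culture library and 46842646 and 42123781 in Panc02.

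The rule compared NK cells with the larger of 2 means, and this fixes the direction of some genes. For 20097 members (83.8%) the NK level was at most 2 times each of the co-culture and Panc02 means, so the rule left the direction free. These are called direction-free below and their differences are given with a test. A further 1704 (7.11%) were included only because the co-culture mean was high. These had to be higher in co-culture, so their fold changes are given as a description with no test. The remaining 2175 (9.07%) were included only through the Panc02 mean and had to be lower, and are treated likewise. The rule used the mean of all co-culture libraries and not the difference between donors, which is tested throughout. High values with either donor could still help a gene to pass. At the limit of 2, the called genes 1810058I24Rik (ratio 1.998), Ccni (1.999) and Lin37 (1.996) lay just inside, and Zfp52 (2.003), Syne3 (2.009) and Epc2 (2.024) just outside.

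Interferon gamma, a cytokine for which NK cells are known, binds a receptor of Ifngr1 and Ifngr2 chains on other cells. The signal runs through the kinases Jak1 and Jak2 to gamma-activated sites (GAS) in target genes, among them that of the transcription factor IRF1. IRF1 and related factors bind interferon-stimulated response elements (ISRE) of GTPase genes that attack vacuoles of intracellular parasites, of chemokines and of antigen presentation genes.

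Members of 2 GTPase families, the immunity-related GTPases and the guanylate-binding proteins, took the leading places among genes higher in co-culture. Promoters of the 4 highest-ranking interferon target genes after Iigp1 that have an entry in the RefSeq promoter table are shown because the ISRE and GAS letters lie at like places in 3 of them. The sequences are from RefSeq (build GRCm38.p6, with coordinates of that build), 250 bases before to 50 bases after the gene start, 5′ to 3′ on the gene's strand, and capitals mark the matched motifs. They are Tgtp2 at chr11:49064163-49064462 (minus strand), Irgm2 at chr11:58214727-58215026 (plus), Tgtp1 at chr11:48992197-48992496 (minus) and Gbp2 at chr3:142620413-142620712 (plus).
Tgtp2: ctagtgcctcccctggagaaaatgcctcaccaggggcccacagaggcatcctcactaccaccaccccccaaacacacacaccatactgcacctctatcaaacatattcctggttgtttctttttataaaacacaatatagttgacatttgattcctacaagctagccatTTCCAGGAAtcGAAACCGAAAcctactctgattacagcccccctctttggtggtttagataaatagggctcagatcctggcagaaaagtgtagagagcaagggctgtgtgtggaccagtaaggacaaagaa
Irgm2: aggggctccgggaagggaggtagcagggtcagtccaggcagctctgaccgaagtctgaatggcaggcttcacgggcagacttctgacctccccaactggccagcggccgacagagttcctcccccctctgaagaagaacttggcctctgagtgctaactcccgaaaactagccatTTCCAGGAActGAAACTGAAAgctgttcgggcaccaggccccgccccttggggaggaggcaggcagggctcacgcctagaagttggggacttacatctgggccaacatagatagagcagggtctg
Tgtp1: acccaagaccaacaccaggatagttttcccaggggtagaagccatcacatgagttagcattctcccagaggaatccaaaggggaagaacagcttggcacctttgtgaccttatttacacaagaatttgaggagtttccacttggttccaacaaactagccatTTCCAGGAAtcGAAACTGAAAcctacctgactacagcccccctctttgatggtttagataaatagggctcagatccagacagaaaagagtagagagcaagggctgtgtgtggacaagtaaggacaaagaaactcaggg
Gbp2: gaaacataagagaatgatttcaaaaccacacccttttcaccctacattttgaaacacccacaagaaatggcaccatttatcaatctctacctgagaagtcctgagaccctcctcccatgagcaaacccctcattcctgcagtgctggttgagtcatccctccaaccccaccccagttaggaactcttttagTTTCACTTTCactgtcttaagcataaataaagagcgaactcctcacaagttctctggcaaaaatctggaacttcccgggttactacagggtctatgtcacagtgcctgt

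The ISRE core was searched as TTTC, any 2 bases and TTTC, and the GAS core as TTC, any 3 bases and GAA, on both strands and without overlap between the 2 motifs in these promoters. In Tgtp2 the GAS letters lie 81 to 73 bases before the start and the ISRE letters 70 to 61 bases before it. In Irgm2 they lie at 75 to 67 and 64 to 55, and in Tgtp1 at 88 to 80 and 77 to 68. Gbp2 has the ISRE letters at 59 to 50 and no GAS letters in this window. Of 32544 promoters of this length, 3.45% hold the ISRE core, 8.33% the GAS core and 0.455% both. Of 20 genes of the interferon, antigen presentation and chemokine lists that were included only through co-culture and called higher there, 14 have an entry, and 8 of those hold the ISRE core, 6 the GAS core and 4 both. A gene was counted when any of its entries matched, whereas the shares are of single sequences, so the 2 measures are not alike. Near-identical genes such as Tgtp1 and Tgtp2 were each counted. The rule set the direction of these 20 genes, so the call that picked them is no test, and the motif counts are a description. Such matches describe letters and not binding.

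The immunity-related GTPases, which coat and break vacuoles holding parasites, had members near or at 0 in Panc02 and far above that level in every co-culture library. Iigp1 (chr18:60509099-60525706, build GRCm39 here and in what follows) stood at 77.0 and 51.5 CPM with the female donor, 25.3 and 24.4 CPM with the male donor and 0 in both Panc02 libraries. It was at least 1355-fold higher in co-culture, against a floor of 3 counts over both Panc02 libraries (0.0337 CPM). In NK monoculture it stood at 1.96 CPM, so an NK share of 2.43%, the mean over the 4 libraries, would bring 0.0478 CPM. Tgtp2 (chr11:48948021-48955033) stood at 99.5 and 74.2 CPM with the female donor, 41.2 and 30.0 CPM with the male donor and 0.0213 and 0 CPM in Panc02, where it had 1 count. With the counts of each group pooled over its libraries, as in the other ratios and bounds given here, the CPM ratio was 5556, with a 95% counting interval of 997 to 219450. Irgm2 (chr11:58090444-58113608) stood at 70.9, 52.9, 28.3 and 23.4 CPM in co-culture (female 1, female 2, male 4, male 5, the order used from here) and at 0 and 0.0712 CPM in Panc02. Its 3 Panc02 counts give a ratio of 1329 (455 to 6445). All co-culture libraries lay above both Panc02 libraries for each of these genes.

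Igtp (chr11:58090382-58098417) stood at 129, 90.1, 50.1 and 44.0 CPM in co-culture and 0.256 and 0.332 CPM in Panc02, a log2 fold change of 7.98 ± 0.38 (SE). Tgtp1 (chr11:48876154-48884999) stood at 97.6, 70.7, 37.7 and 29.3 CPM in co-culture and 0.0213 and 0.0950 CPM in Panc02 (9.86 ± 0.49). Irgm1, a regulator of the same family, stood at 213, 169, 101 and 83.9 CPM in co-culture and, unlike the genes above, at several CPM in Panc02 too, 8.92 and 7.36 CPM (4.08 ± 0.19). Gm4841 stood at 8.67, 5.60, 2.30 and 2.43 CPM in co-culture and 0 and 0.0237 CPM in Panc02. In each of these genes the female-donor libraries lay above the male-donor libraries, and female 1 above female 2. Tgtp1 and Tgtp2 are near-identical, Gm12185 lies over Tgtp1 and Irgm2 over Igtp, and reads that map to several places were counted, so the split of counts between such genes is uncertain. Counting intervals and floors cover counting error only, and both mates of a read pair were counted.

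Guanylate-binding proteins, GTPases that assemble on vacuoles and on bacteria, also had the female-donor libraries above the male-donor libraries. Gbp2 (chr3:142326363-142343769) stood at 144, 95.8, 58.7 and 47.7 CPM in co-culture and 0.0854 and 0.142 CPM in Panc02 (9.49 ± 0.57). Gbp6 stood at 12.4, 7.67, 5.65 and 4.47 CPM in co-culture and 0 in Panc02, at least 227-fold higher, and Gbp10 at 5.08, 3.61, 2.53 and 2.63 CPM and 0, at least 104-fold higher. The other listed guanylate-binding proteins with values here, Gbp3, Gbp4, Gbp5, Gbp7, Gbp8 and Gbp9, lay outside the rule because NK cells express them more.

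Signalling genes upstream of these targets differed less. Irf1 (chr11:53660841-53669200) stood at 185, 162, 102 and 95.6 CPM in co-culture and 22.6 and 21.4 CPM in Panc02 (a log2 fold change of 2.62 ± 0.06). Socs3, a feedback inhibitor of JAK signalling, was at 33.4, 28.5, 23.2 and 23.3 CPM in co-culture and 18.2 and 17.4 CPM in Panc02 (0.64 ± 0.08). The receptor chain gene Ifngr2 and the kinase gene Jak2 are direction-free and did not pass the test. Ifngr2 stood at 60.8, 59.7, 65.1 and 66.1 CPM in co-culture and 65.1 and 63.2 CPM in Panc02 (0.02 ± 0.05, adjusted p = 0.812), and Jak2 had a log2 fold change of 0.03 ± 0.03 (adjusted p = 0.675). The sign of the Jak2 value was negative without Panc02 1, at -0.002245.

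Genes that serve antigen presentation and chemotaxis were also higher in co-culture. Tapbp, the tapasin gene that loads peptides on MHC class I, stood at 348, 286, 202 and 199 CPM in co-culture and 79.1 and 79.0 CPM in Panc02 (1.73 ± 0.06). Psme2, a subunit of the proteasome activator PA28, stood at 69.0, 66.9, 45.4 and 45.0 CPM in co-culture and 17.2 and 18.3 CPM in Panc02 (1.69 ± 0.06). The chemokine gene Cxcl10, whose product draws activated T and NK cells, stood at 8.09, 4.81, 2.36 and 2.36 CPM in co-culture and 0.576 and 0.665 CPM in Panc02 (2.70 ± 0.28). Cxcl9, of the same receptor, reached only 1.63, 0.919, 0.291 and 0.460 CPM in co-culture and had 0 counts in Panc02, at least 25.4-fold higher. Ido1, the tryptophan-degrading enzyme gene, was at 0.602, 0.470, 0.233 and 0.219 CPM in co-culture and 0 in Panc02, at least 11.6-fold higher. Gsdmd, the gene of the pore-forming gasdermin D, stood at 82.5, 75.1, 62.4 and 66.7 CPM in co-culture and 38.1 and 36.2 CPM in Panc02 (0.99 ± 0.06).

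**Figure D1:**
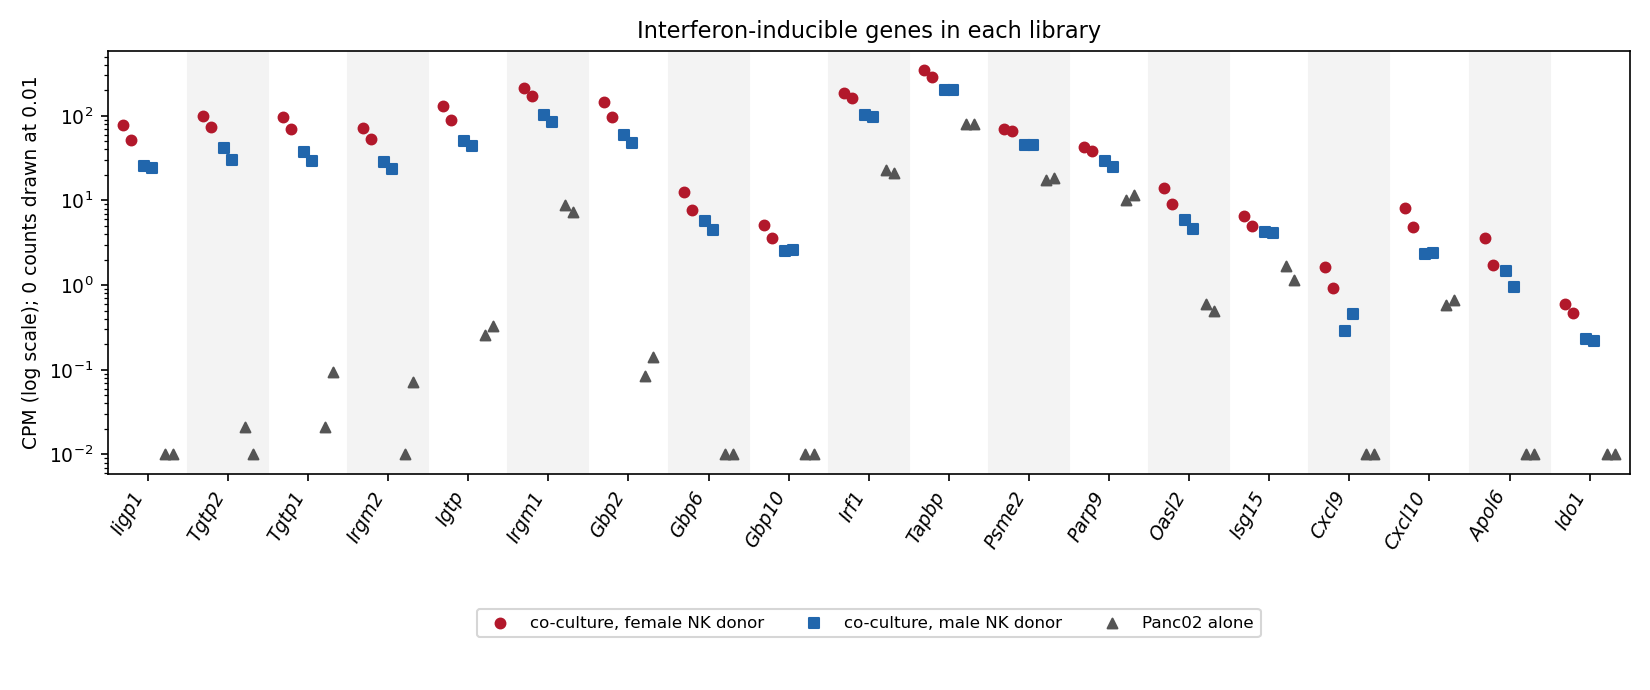
Interferon target genes among the members, in CPM on a log scale, 1 point per library, with co-cultures of the female NK donor, co-cultures of the male donor and Panc02 monoculture for each gene. Libraries with 0 counts are drawn at 0.01 CPM. The genes drawn were included only through co-culture, so their place above Panc02 is set by the rule, and Iigp1 stood at 24.4 to 77.0 CPM in co-culture and at 0 in Panc02.

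Among 7 lists of interferon genes with 109 genes in all, 73 lay outside the rule, 23 were included only through co-culture and 13 were direction-free. Of those 13, 6 rose and 0 fell, with a median log2 fold change of 0.16, against -0.01 over all direction-free genes tested. Over all 18172 genes tested, 12.2% rose and 6.12% fell (edgeR's quasi-likelihood test, Benjamini-Hochberg adjusted p below 0.05). Batf2, a transcription factor gene of the interferon response, rose by 3.57 ± 0.42 on the log2 scale (adjusted p = 1.81e-06), at 3.14, 2.31, 1.11 and 1.05 CPM in co-culture and 0.107 and 0.190 CPM in Panc02. It is on none of these lists and was picked after its values were seen. Bst2, the tetherin gene that holds budding viruses, rose by 0.64 ± 0.07 (adjusted p = 7.8e-07), at 46.1, 40.4, 31.8 and 32.8 CPM in co-culture and 25.5 and 24.3 CPM in Panc02. Trim25, a ubiquitin ligase of RNA sensing, rose by 0.40 ± 0.06 (adjusted p = 4.08e-05) and Slc7a11, the cystine transporter gene, by 0.38 ± 0.06 (adjusted p = 4.5e-05). Of the 6 that rose, 3 are on the type I interferon list. Slc7a11 and Wars are on that of metabolic targets and Calr on that of MHC class I. Slc7a11 is also on the integrated stress and unfolded protein response list, so its rise is not particular to interferon lists. Oasl1, Wars and Calr rose by 0.30 ± 0.09, 0.16 ± 0.04 and 0.09 ± 0.03, and all 3 calls ended without Panc02 1 and also without Panc02 2, those of Oasl1 and Calr without male 5 as well.

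Much of antigen presentation lies outside the rule, since NK cells express it at high levels. The values of these fixed genes follow with the level that an NK share of 2.43% would bring. H2-K1, a classical MHC class I heavy chain, averaged 154 CPM in co-culture and 32.9 CPM in Panc02, and the NK share would bring 90.9 CPM. B2m, its light chain, averaged 203 CPM in co-culture and 93.9 CPM in Panc02, with 72.2 CPM from the NK share. Tap1, a peptide transporter subunit, averaged 9.55 CPM in co-culture and 0.0107 CPM in Panc02, with 6.01 CPM from the NK share. The immunoproteasome genes Psmb8 and Psmb9 averaged 6.30 and 2.49 CPM in co-culture and 0 in Panc02, with 4.36 and 1.98 CPM from the NK share.

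Cd274, Nlrc5, Serpinb9, Socs1, Ifngr1 and Icam1 also lay outside the rule. Between co-culture and Panc02 they differed by more than the level that the NK share would bring. So did H2-K1, B2m, Tap1, Psmb8 and Psmb9 above. For these antigen presentation genes and for Icam1 the difference was less than 2 times that level. Cd274, which encodes the checkpoint ligand PD-L1, stood at 23.1, 17.2, 9.20 and 9.41 CPM in co-culture and 1.13 and 1.61 CPM in Panc02, with 0.849 CPM from the NK share. Its log2 fold change was 3.38 ± 0.18, and 3.33 ± 0.18 with the NK share subtracted. Nlrc5, the transactivator of MHC class I genes, averaged 35.6 CPM in co-culture and 4.12 CPM in Panc02, with 6.04 CPM from the NK share. Serpinb9, an inhibitor of granzyme B, averaged 28.9 CPM in co-culture and 4.29 CPM in Panc02, with 10.00 CPM from the NK share. Socs1 averaged 14.1 CPM against 5.91 CPM (3.95 CPM from the NK share), Ifngr1 76.2 CPM against 34.6 CPM (18.1 CPM) and Icam1 8.40 CPM against 4.88 CPM (2.13 CPM). Ciita and Cd74 of the MHC class II pathway averaged 0.377 and 1.21 CPM in co-culture and 0.0107 and 0.0878 CPM in Panc02. Both lay outside the rule because NK cells express them more, and the part of NK RNA in these values was not tested. The subtraction takes NK cells in co-culture to express a gene as in NK monoculture.

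Ifng itself, outside the rule, stood at 4.01, 4.04, 2.39 and 1.82 CPM in co-culture and 0 in both Panc02 libraries, against 55.9 CPM in NK monoculture. Ifnb1, the interferon beta gene, had 0 counts in all of these libraries. Of the fixed chemokine genes, Cxcl11 and Ccl2 had 0 counts in co-culture and Panc02.

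Changes of at least 2-fold were few among direction-free genes. Of 13167 direction-free genes tested, 899 rose (6.83%) and 924 fell (7.02%), against 12.2% and 6.12% over all genes tested, and the median log2 fold change was -0.01 against 0.01 over all genes. Changes of at least 2-fold numbered 28 up and 101 down, or 0.213% and 0.767%, against 5.28% and 0.913% over all genes tested. Both counts rest on 2 Panc02 libraries: without Panc02 1 the direction-free calls were 300 up and 296 down, and without Panc02 2 they were 463 and 424. Over all members tested, 1044 of 14113 were called higher and 1039 lower, counts that the rule itself helped to set. The counts of direction-free genes in each list below are to be read against the shares of 6.83% risen and 7.02% fallen. In a short list, 1 or 2 calls lie near these shares.

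Genes of neutrophil chemokines and of cytokines rose in co-culture. Of 12 direction-free chemokine and cytokine genes, 7 rose and 0 fell, with a median log2 fold change of 0.55. Cxcl2 stood at 6.53, 7.91, 6.29 and 6.61 CPM in co-culture and 2.07 and 2.92 CPM in Panc02 (1.51 ± 0.18, adjusted p = 2.96e-06). Cxcl3 stood at 15.3, 16.2, 15.4 and 16.4 CPM in co-culture and 6.62 and 6.81 CPM in Panc02 (1.29 ± 0.11, adjusted p = 1e-08). Cxcl5, the third of these neutrophil attractants, stood at 46.1, 44.5, 42.4 and 45.1 CPM in co-culture and 30.0 and 32.6 CPM in Panc02 (0.56 ± 0.06, adjusted p = 1.07e-06). In all 3 genes the co-culture libraries lay close together and above both Panc02 libraries, with no order by donor. Cxcl1, which shares their receptor, had almost no counts, at 0 to 0.0438 CPM.

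The IL-6 family cytokine genes Il11 and Lif rose as well. Il11 stood at 9.76, 9.47, 9.23 and 9.20 CPM in co-culture and 3.80 and 5.37 CPM in Panc02 (1.09 ± 0.15, adjusted p = 1.45e-05). Lif stood at 78.4, 63.9, 59.1 and 65.2 CPM in co-culture and 47.9 and 46.7 CPM in Panc02 (0.54 ± 0.07, adjusted p = 6.68e-06). The alarmin gene Il33 stood at 46.1, 47.4, 54.8 and 50.5 CPM in co-culture and 37.5 and 31.8 CPM in Panc02 (0.57 ± 0.07, adjusted p = 2.03e-06). Tslp, another epithelial alarmin, rose by 0.69 ± 0.20 (adjusted p = 0.0234), and its call ended in 4 of the 6 fits that leave out 1 library. Of 5 direction-free genes of the STAT3 and acute phase list, 3 rose and 0 fell. Il13ra1, a receptor chain for IL-13, rose by 0.85 ± 0.08 (adjusted p = 7.9e-08), at 27.7, 29.6, 28.1 and 26.2 CPM in co-culture and 16.7 and 15.4 CPM in Panc02, and Il4ra rose by 0.27 ± 0.04 (adjusted p = 3.95e-05). The oncostatin M receptor gene Osmr rose at under 1 CPM (2.73 ± 0.86, adjusted p = 0.0317), a call that ended without female 2, male 5 or Panc02 2.

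Genes of a prostaglandin enzyme, of secreted proteins and of a receptor partner rose in the same libraries, and those of the next sentences up to Ramp3 were picked after their values were seen. Ptgs2 (chr1:149975782-149983978), the cyclooxygenase-2 gene of prostaglandin synthesis, stood at 646, 614, 588 and 624 CPM in co-culture and 336 and 371 CPM in Panc02 (0.86 ± 0.04, adjusted p = 1.71e-12). The placental proliferin genes Prl2c2 and Prl2c3 rose by 1.10 ± 0.04 (adjusted p = 2.08e-14) and 1.20 ± 0.04 (adjusted p = 1.78e-14), and as near-identical copies their counts are uncertain one against the other. Prl2c2 stood at 455, 431, 424 and 455 CPM in co-culture and 219 and 207 CPM in Panc02. Slpi, an inhibitor of neutrophil elastase, stood at 65.1, 70.3, 74.2 and 74.9 CPM in co-culture and 37.7 and 39.5 CPM in Panc02 (0.93 ± 0.06, adjusted p = 6.09e-11). Fst, the activin-binding follistatin gene, stood at 29.3, 22.3, 17.5 and 17.4 CPM in co-culture and 9.54 and 11.3 CPM in Panc02 (1.08 ± 0.11, adjusted p = 2.7e-07). Ramp3, a receptor partner for adrenomedullin, rose by 1.43 ± 0.13 (adjusted p = 5.67e-08). For every gene of this paragraph the co-culture libraries all lay above both Panc02 libraries.

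In the lists of interferon, chemokine and cytokine, STAT3, immediate early, death receptor, heat shock and glycolysis genes with 0 falls among direction-free members, 0 fell at an unadjusted p below 0.05 and 0 by DESeq2 as well. In other fits, 3 glycolysis and hypoxia genes fell without male 4 and with a replicate block, and 1 heat shock gene fell with the block.

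Immediate early genes, which cells switch on within minutes of a stimulus, were higher in co-culture as a group. Of 11 direction-free genes 9 rose and 0 fell, with a median log2 fold change of 0.32. Ier3, a survival gene of this class, stood at 179, 179.6, 168 and 173 CPM in co-culture and 100.1 and 108 CPM in Panc02 (0.80 ± 0.04, adjusted p = 1.14e-11). Fosb, an AP-1 subunit, stood at 21.3, 21.3, 16.2 and 16.7 CPM in co-culture and 9.82 and 8.81 CPM in Panc02 (1.06 ± 0.10, adjusted p = 3.89e-08). The nuclear receptor gene Nr4a1 rose by 0.67 ± 0.06 (adjusted p = 1.21e-08), Fosl2 by 0.32 ± 0.04 (adjusted p = 1.39e-05) and Jun by 0.36 ± 0.06 (adjusted p = 0.000157). Fos and Egr3 were included only through co-culture, with log2 fold changes of 1.98 ± 0.15 and 0.72 ± 0.09. Without Panc02 1, 6 of the list rose. Myc, with 257, 234, 242 and 252 CPM in co-culture and 245 and 259 CPM in Panc02, did not pass the test (0.02 ± 0.04, adjusted p = 0.81), and its sign was negative without female 1 (-0.01) or Panc02 1 (-0.02).

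**Figure D2:**
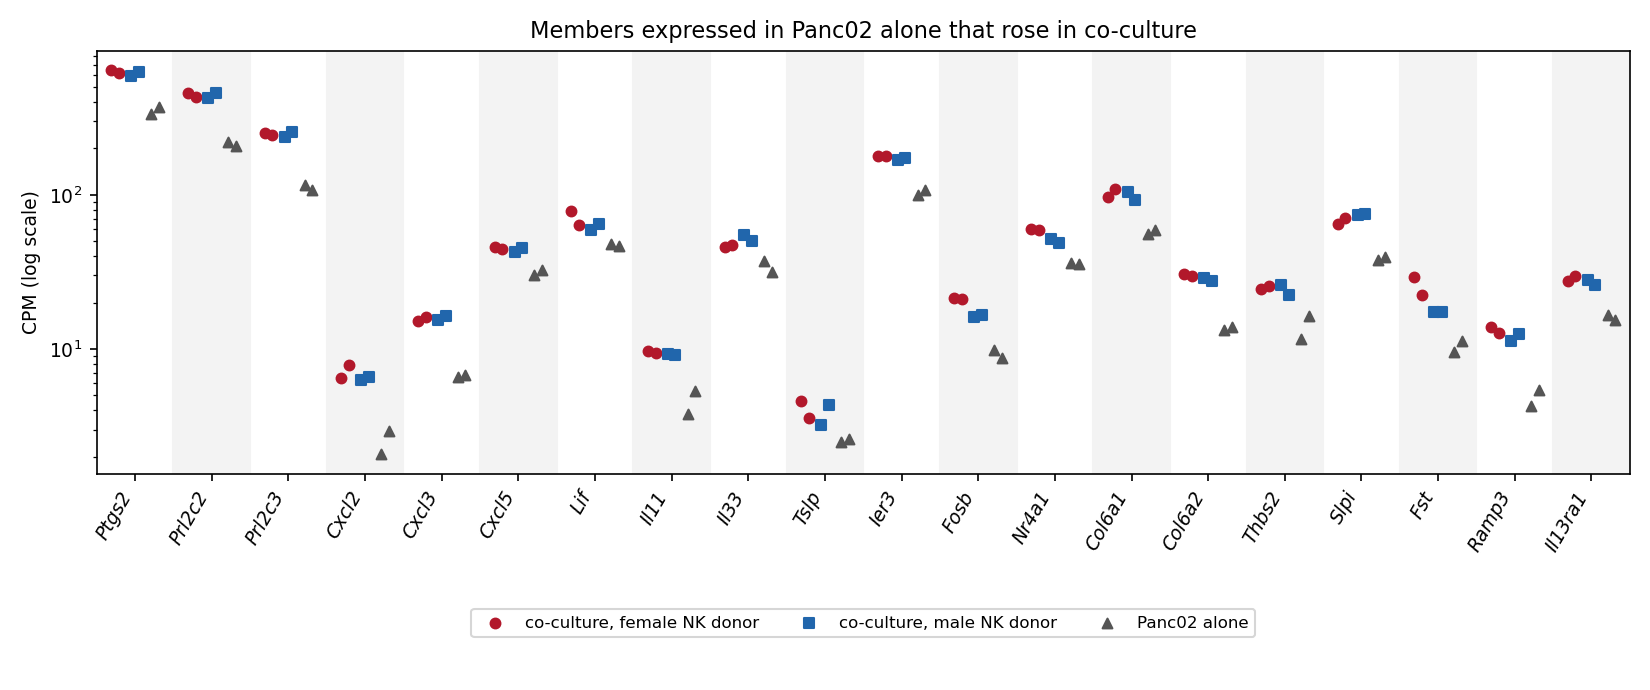
Direction-free genes that rose in co-culture, in CPM on a log scale, 1 point per library, with co-cultures of the female NK donor, co-cultures of the male donor and Panc02 monoculture for each gene. The co-culture libraries lie above both Panc02 libraries, as for Ptgs2 at 588 to 646 CPM in co-culture and 336 to 371 CPM in Panc02.

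Matrix genes changed in both directions. Of 18 direction-free collagen and matrix genes 3 rose and 5 fell, with a median log2 fold change of -0.07. The collagen VI chains Col6a1 and Col6a2 rose, by 0.86 ± 0.06 (adjusted p = 8.74e-10) and 1.15 ± 0.08 (adjusted p = 4.84e-10). Col6a1 stood at 97.0, 109, 105 and 92.4 CPM in co-culture and 55.8 and 59.5 CPM in Panc02, and Col6a2 at 30.7, 29.7, 28.8 and 27.8 CPM in co-culture and 13.3 and 14.0 CPM in Panc02. The matricellular gene Ccn1 rose by 0.28 ± 0.04 (adjusted p = 0.000101), whereas its relative Ccn2 fell. Ccn2 stood at 70.2, 70.3, 66.8 and 69.1 CPM in co-culture and 101 and 110.1 CPM in Panc02 (-0.56 ± 0.05, adjusted p = 1.97e-08). Thrombospondin genes also went apart, since Thbs2 rose by 0.87 ± 0.11 (adjusted p = 1.49e-05, picked after its values were seen) and Thbs1 fell by 0.22 on the log2 scale (SE 0.04, adjusted p = 0.000231). Spp1, the osteopontin gene, stood at 3397, 3544, 4009 and 3991 CPM in co-culture and 4345 and 4233 CPM in Panc02 (-0.15 ± 0.03, adjusted p = 0.000645), a call that ended without Panc02 1. Without Panc02 1, 3 of the list rose and 2 fell, and without Panc02 2 or male 5, 3 rose and 3 fell. Of 10 direction-free matrix protease and inhibitor genes 5 rose and 1 fell, among them Timp3 (1.02 ± 0.20, adjusted p = 0.000951) and the urokinase receptor gene Plaur (0.25 ± 0.04, adjusted p = 0.000184) up and Timp2 (-0.17 ± 0.03, adjusted p = 0.00135) down. Without Panc02 1, 2 of the list rose, and without Panc02 2, 3 rose and the Timp2 call ended.

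Genes of cell death and stress moved little. Of 9 direction-free death receptor and caspase genes 4 rose and 0 fell. Mlkl, the pore-forming effector of necroptosis, stood at 40.0, 40.6, 35.8 and 31.7 CPM in co-culture and 28.2 and 28.9 CPM in Panc02 (0.42 ± 0.07, adjusted p = 0.000132). The TNF receptor gene Tnfrsf1a rose by 0.27 ± 0.06 (adjusted p = 0.0015), a call that ended without Panc02 1, and without Panc02 1 only 1 of the list rose. Tnfrsf10b, the TRAIL receptor gene, stood at 73.0, 77.8, 69.7 and 78.3 CPM in co-culture and 73.0 and 82.9 CPM in Panc02 (-0.01 ± 0.06, adjusted p = 0.953), with its sign positive in 3 of the fits that leave out 1 library. Fas and Casp8, both outside the rule, averaged 0.953 and 43.3 CPM in co-culture and 0.568 and 39.4 CPM in Panc02. Of 7 direction-free BCL2 family genes 1 rose and 1 fell. Bcl2l1, the gene of the survival protein BCL-xL, fell by 0.16 on the log2 scale (SE 0.04, adjusted p = 0.0143), a call that ended without female 2, male 4, Panc02 1 or Panc02 2. Bak1, a pore-forming family member, rose by 0.37 ± 0.04 (adjusted p = 1.14e-06), at 189, 172, 154 and 159 CPM in co-culture and 135 and 134 CPM in Panc02. Of 10 heat shock genes 4 rose and 0 fell, with a median log2 fold change of 0.06, led by the near-identical Hspa1b (0.36 ± 0.05, adjusted p = 6.57e-06) and Hspa1a (0.36 ± 0.05, adjusted p = 4.27e-05). Without Panc02 1, 2 of them rose.

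Targets of p53 leaned downward. Of 12 direction-free genes 0 rose and 6 fell, with a median log2 fold change of -0.18, but the number that fell was 2 with the NK share subtracted, 2 without Panc02 2, where 1 rose, and 3 without male 4. Gadd45a, a stress sensor that binds the replication clamp, stood at 19.9, 22.1, 21.2 and 20.3 CPM in co-culture and 28.9 and 33.4 CPM in Panc02 (-0.52 ± 0.08, adjusted p = 6.41e-05). Aen, an exonuclease gene, fell by 0.20 on the log2 scale (SE 0.04, adjusted p = 0.0016), and this call ended without Panc02 1. Cdkn1a, the cell cycle inhibitor p21, did not pass the test (0.10 ± 0.05, adjusted p = 0.16). Among 29 cell cycle genes 3 rose and 1 fell, with a median of 0.03, and 0 rose when Panc02 1 or Panc02 2 was left out. The 1 that fell was Ccnd1, the cyclin D1 gene, at 1288, 1268, 1268 and 1302 CPM in co-culture and 1467 and 1485 CPM in Panc02 (-0.15 ± 0.03, adjusted p = 0.000717). Mki67, the proliferation marker, stood at 601, 639.9, 666 and 604 CPM in co-culture and 632 and 627 CPM in Panc02 (0.05 ± 0.04, adjusted p = 0.443).

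Lipid synthesis genes split between their branches. Of 22 cholesterol and fatty acid synthesis genes, all direction-free, 3 rose and 4 fell, with a median of -0.03. Fasn, the fatty acid synthase gene, stood at 763 to 827 CPM in co-culture and 979.9 and 982 CPM in Panc02 (-0.26 ± 0.03, adjusted p = 4.39e-06). Acaca, which makes its malonyl-CoA, fell by 0.25 on the log2 scale (SE 0.04, adjusted p = 5.99e-05) and their regulator Srebf1 by 0.19 (SE 0.04, adjusted p = 0.000819). Cyp51 of the cholesterol branch rose by 0.23 ± 0.04 (adjusted p = 0.000429), while Hmgcs1, at the start of that branch, did not pass the test (0.12 ± 0.08, adjusted p = 0.367). When 1 library was left out the list had 1 to 6 rises and 3 or 4 falls, with 1 rise without Panc02 2, 5 without male 5 and 6 without female 1. Of 18 glycolysis and hypoxia genes 6 rose and 0 fell, including Hk1 (0.19 ± 0.04, adjusted p = 0.000556) and Ankrd37 (1.14 ± 0.21, adjusted p = 0.000562). Its number of rises was 13 without male 5 and 2 without Panc02 2, and 3 genes of the list fell without male 4 and with a replicate block.

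**Figure D3:**
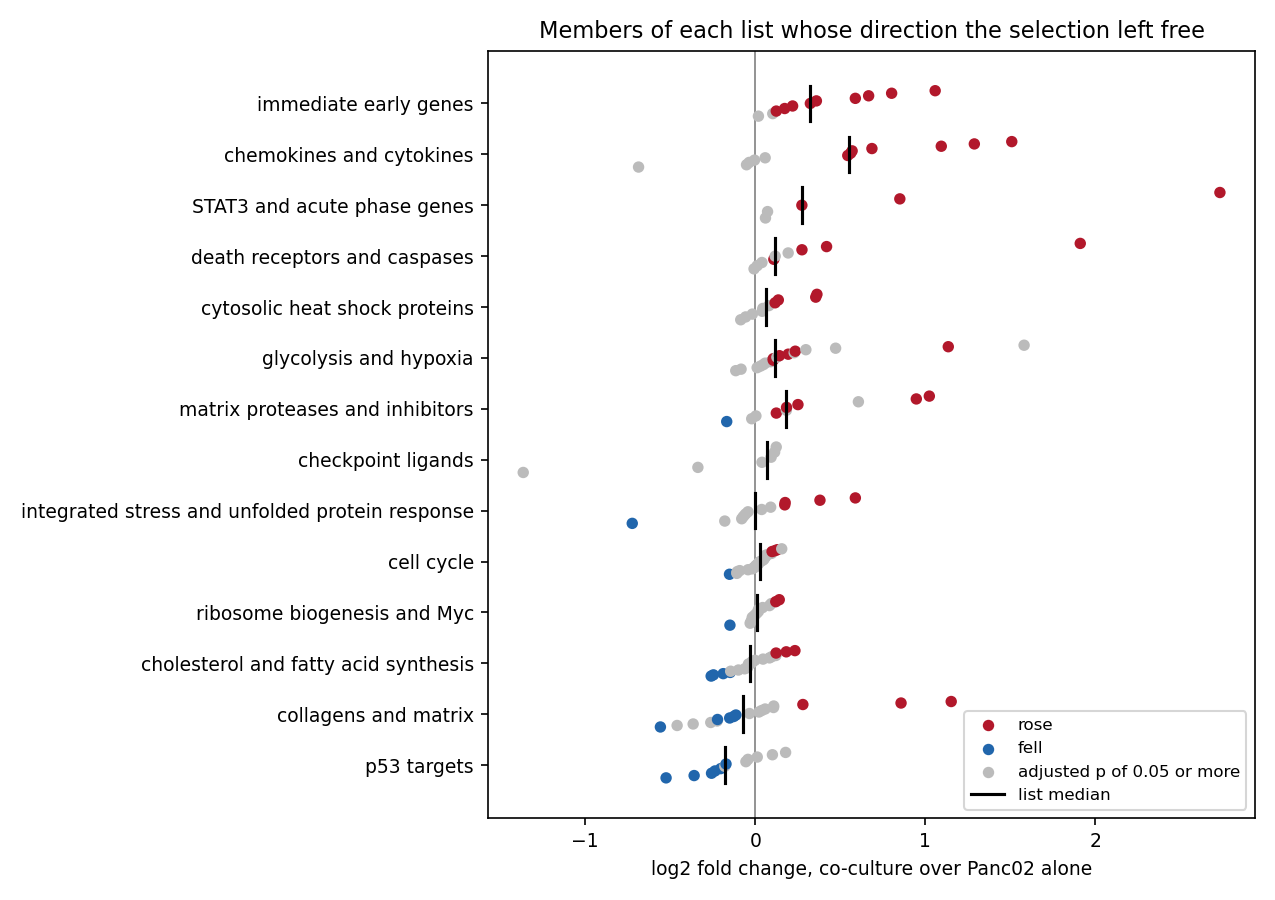
Log2 fold change of co-culture over Panc02 for the direction-free genes of the lists named in the text, 1 point per gene, with a bar at the median of each list and colour for the edgeR call. Immediate early genes (median 0.32) and chemokines and cytokines (0.55) lie to the right of 0 and p53 targets (-0.18) to the left.

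Among ligands by which NK cells recognise targets or are restrained by them, no direction-free gene passed the test, and Cd274, outside the rule, is described above. Of 6 checkpoint ligand genes, 3 NKG2D ligand genes and 2 adhesion or other NK receptor ligand genes among the direction-free members, 0 rose and 0 fell in each list by edgeR's test, and likewise by DESeq2. In other fits, 1 checkpoint ligand gene fell with median-ratio scaling, with a replicate block, with no filter on low counts and without female 2, male 4, male 5 or Panc02 1, 2 fell without female 1, and 1 rose without Panc02 2. Of the NKG2D ligand genes, 1 fell with the block and without female 2. At an unadjusted p below 0.05, 1 checkpoint ligand gene was higher and 1 lower, 1 NKG2D ligand gene was lower and 0 of the third list differed. Pvr, the ligand of DNAM-1 and TIGIT, stood at 84.2, 85.4, 84.5 and 80.2 CPM in co-culture and 80.2 and 82.2 CPM in Panc02 (0.09 ± 0.05, adjusted p = 0.183). Nectin2, of the same receptors, had a log2 fold change of 0.12 ± 0.09 (adjusted p = 0.386). The NKG2D ligand gene Ulbp1 stood at 16.4, 19.0, 20.2 and 19.8 CPM in co-culture and 23.9 and 21.8 CPM in Panc02 (-0.23 ± 0.08, adjusted p = 0.0731). All co-culture values of Ulbp1 lay below both Panc02 values, but the difference missed the threshold, which it passed without female 2. Raet1e, another such ligand, had a log2 fold change of 0.06 ± 0.06 (adjusted p = 0.611), and Cd276, which encodes B7-H3, of 0.11 ± 0.05 (adjusted p = 0.138), which passed the test without Panc02 2. The TIGIT ligand gene Nectin4 stood at 0.334, 0.150, 0.495 and 0.416 CPM in co-culture and 0.897 and 0.878 CPM in Panc02 (-1.36 ± 0.47, adjusted p = 0.0508) and passed the test without female 1. Vtcn1, which encodes B7-H4 and had too few counts for the test, was at 0 in all co-culture libraries and at 0.0854 and 0.522 CPM in Panc02.

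The largest tested falls were in genes of low level. Of 101 direction-free genes that fell by at least 2-fold, 37.6% are pseudogenes and 15.8% protein-coding in GENCODE M21, against 16.1% and 68.5% of the 13167 direction-free genes tested, and 8 of the 101 reached a mean of 5 CPM in Panc02. Sned1, which encodes an extracellular matrix glycoprotein, stood at 6.60, 6.32, 5.15 and 6.06 CPM in co-culture and 14.2 and 14.9 CPM in Panc02 (-1.22 ± 0.12, adjusted p = 9.2e-08). Amotl1, an angiomotin family gene that binds YAP, stood at 3.03, 3.93, 3.78 and 3.24 CPM in co-culture and 8.35 and 6.98 CPM in Panc02 (-1.08 ± 0.16, adjusted p = 5.99e-05). The unnamed non-coding or pseudogene models Gm37795, Gm28119, F730043M19Rik, AC121821.1 and AC129773.1 fell by 1.42, 1.21, 1.14, 1.07 and 1.05 on the log2 scale. Mylk, Gm26532 and the nuclear RNA gene Malat1, included only through Panc02, had log2 fold changes of -1.20 ± 0.15, -1.42 ± 0.30 and -1.06 ± 0.10. Malat1 stood at 269, 259, 182 and 201 CPM in co-culture and 436 and 537 CPM in Panc02.

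Smaller falls included enzymes of amino acid and one-carbon metabolism. Cth, the cystathionine gamma-lyase gene, stood at 3.30, 4.70, 3.78 and 5.14 CPM in co-culture and 8.45 and 7.60 CPM in Panc02 (-0.87 ± 0.17, adjusted p = 0.00086). Aldh1l2, a mitochondrial folate enzyme, stood at 5.37, 5.92, 6.02 and 7.22 CPM in co-culture and 10.3 and 10.7 CPM in Panc02 (-0.72 ± 0.13, adjusted p = 0.000348). It was the 1 gene of 12 in the integrated stress and unfolded protein response list that fell, while 4 rose, or 2 when Panc02 1 or Panc02 2 was left out. Chka, the choline kinase gene, stood at 114, 102, 97.3 and 111 CPM in co-culture and 153 and 166 CPM in Panc02 (-0.54 ± 0.05, adjusted p = 3.73e-07). The receptor tyrosine kinase gene Ephb3 fell by 0.59 on the log2 scale (SE 0.09, adjusted p = 0.00011) and the cytoskeletal adaptor gene Sorbs2 by 0.55 (SE 0.06, adjusted p = 2.86e-07). Cth, Chka, Ephb3 and Sorbs2 were picked after their values were seen. Of 8 direction-free epithelial identity genes 1 rose and 2 fell, with a median of -0.02. The keratin gene Krt8 rose by 0.11 ± 0.03 (adjusted p = 0.0114) and Krt7 fell by 0.13 on the log2 scale (SE 0.04, adjusted p = 0.0176), and both calls ended without Panc02 1. The ductal keratin gene Krt19 stood at 324, 334, 389 and 349.9 CPM in co-culture and 402 and 429 CPM in Panc02 (-0.20 ± 0.04, adjusted p = 0.00145), a call that ended without Panc02 2. All 6 mesenchymal genes tested in this way failed the test, with a median of 0.01.

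**Figure D4:**
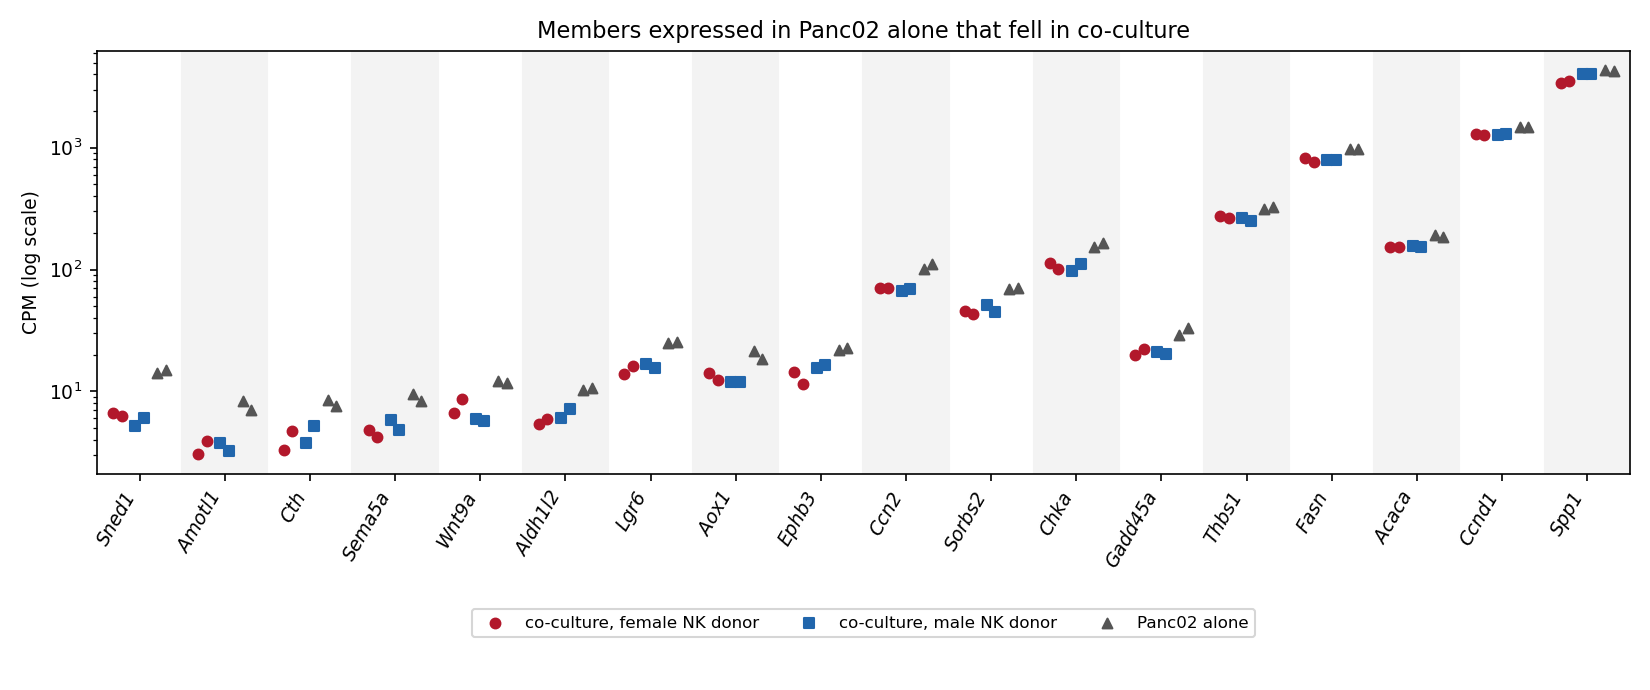
Direction-free genes that fell in co-culture, in CPM on a log scale, 1 point per library, with co-cultures of the female NK donor, co-cultures of the male donor and Panc02 monoculture for each gene. The co-culture libraries lie below both Panc02 libraries, as for Sned1 at 5.15 to 6.60 CPM in co-culture and 14.2 to 14.9 CPM in Panc02.

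Co-cultures with female-donor and male-donor NK cells differed in the level of interferon genes included only through co-culture, and little in the direction-free ones. Of 14113 members tested, 37 were higher and 23 lower with the female donor than with the male donor, or 0.262% and 0.163%, against 0.985% and 0.154% over all genes tested, and without male 5 the balance turned, with 14 higher and 28 lower. Of the 21 interferon genes included only through co-culture and tested, 9 were higher with the female donor and 0 lower. In 21 of 21 both female-donor libraries lay above both male-donor libraries, which 26.3% of all genes tested did. Of all 347 tested members included only through co-culture, 19 were higher and 0 lower, and 111 had this order and 50 the reverse. High female-donor values could help these genes to pass, and the 21 are not independent of each other, so their order is a description. The median log2 difference, female minus male, was 1.02 over these 21 genes and -0.01 over all members tested. Of the 13 direction-free interferon genes 1, Bst2, was called (0.39 ± 0.08, adjusted p = 0.0138), and its call ended without female 1, male 4 or male 5. The median of these 13 was 0.04, with both female-donor libraries above both male-donor libraries in 5 and below them in 3.

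Irf1 averaged 173 ± 16.7 CPM with the female donor and 98.8 ± 4.61 CPM with the male donor (SD, n = 2 each), a log2 difference of 0.78 ± 0.06 (edgeR adjusted p = 2.39e-07). For Tapbp the averages were 317 ± 43.3 and 200.8 ± 2.17 CPM with the female and male donor (0.63 ± 0.06, edgeR adjusted p = 0.000149), and for Psme2 67.9 ± 1.49 and 45.2 ± 0.297 CPM (0.56 ± 0.06, edgeR adjusted p = 4.32e-05). Irgm2 differed by 1.24 ± 0.15 (edgeR adjusted p = 0.00779). Irf1, Tapbp, Psme2 and Irgm2 were all included only through co-culture. High female-donor values could help them to pass, so these p-values come from genes chosen partly by the values tested. The call of each of these 4 genes was kept when any 1 library was left out. Oasl2, Cxcl10, Gbp6, Gm12185, Gm4841 and Parp9 were called as well, and each call ended in 1 to 3 of the fits that leave out 1 library. Socs3 was also called higher with the female donor, and its call ended in 5 of these fits. Iigp1 (1.34 ± 0.22, adjusted p = 0.155) and Gbp2 (1.15 ± 0.26, adjusted p = 0.277) differed in the same direction without passing the test.

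Values that moved with the donor are given beside these. The NK share was 1.60 times higher with the female donor, a log2 difference of 0.675, and Ifng differed by 0.92 ± 0.28 (adjusted p = 0.144). With the NK share subtracted, the difference was 0.81 ± 0.06 for Irf1 (adjusted p = 4.02e-06) and 1.28 ± 0.16 for Irgm2. Female 1 had the lower NK share of the 2 female-donor libraries, at 2.68% against 3.30%, and was above female 2 in 21 of 21 of the interferon genes included only through co-culture. Whether the number of NK cells, their Ifng or another property of the donor had a part in these differences was not tested. With 2 libraries a donor sex, and no statement of separate animals, donor and donor sex cannot be told apart.

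**Figure D5:**
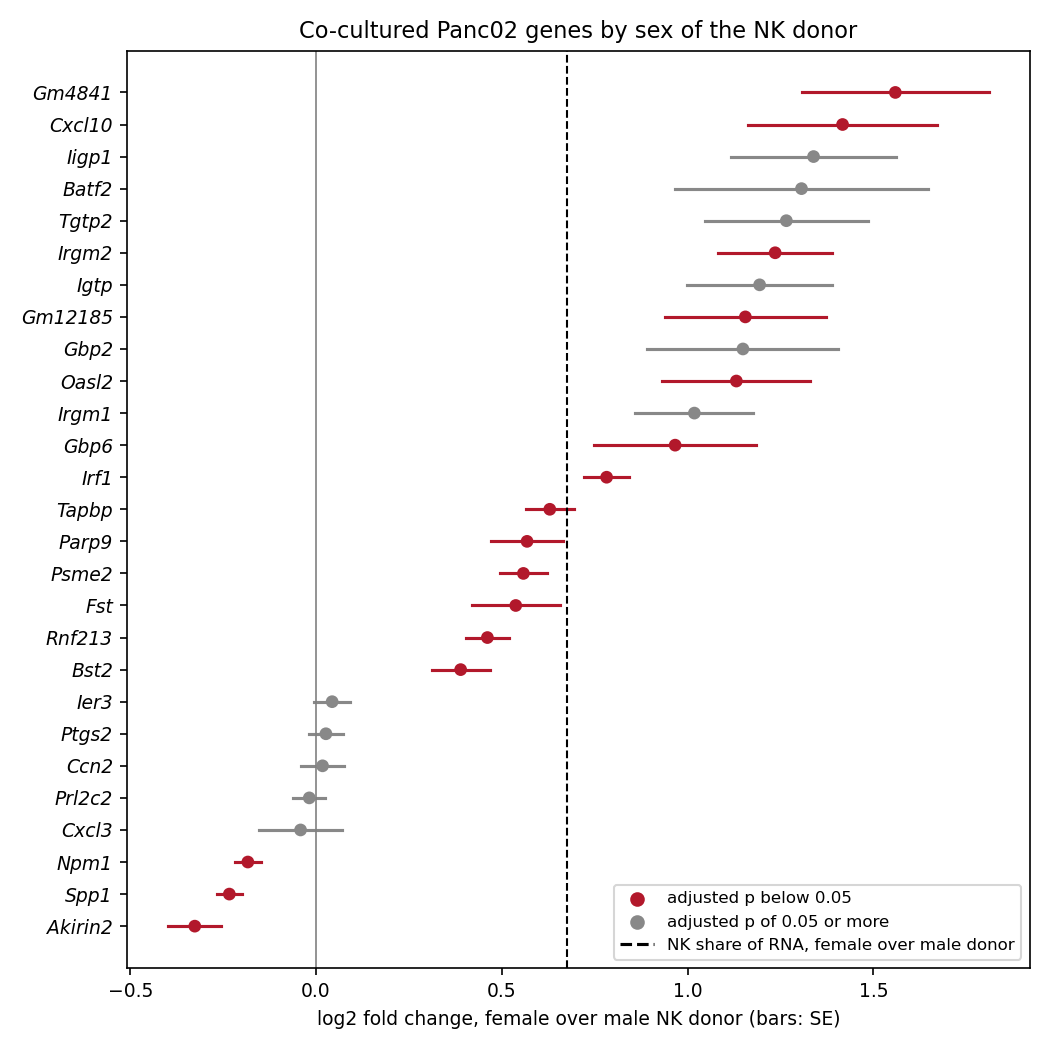
Log2 fold change of female-donor over male-donor co-cultures for single members, with bars for the SE and colour for the edgeR call; the dashed line marks the NK share of RNA, 0.675. The interferon genes drawn, most of them included only through co-culture, lie right of 0. Among them are Irf1 at 0.78 and Tapbp at 0.63, whereas Ptgs2 (0.03) and Cxcl3 (-0.04) lie near 0.

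Ptgs2, Cxcl3, Il11 and Col6a1, which also rose in co-culture, did not pass the test between donors. Ptgs2 differed between donors by 0.03 ± 0.05 (adjusted p = 0.878), Cxcl3 by -0.04 ± 0.11 (adjusted p = 0.931), Il11 by 0.03 ± 0.16 (adjusted p = 0.963) and Col6a1 by 0.03 ± 0.07 (adjusted p = 0.904). Fst, which rose too, was called between donors (0.54 ± 0.12, adjusted p = 0.0256). Its call ended without female 1, male 4 or male 5. Npm1 rose in co-culture, a call that ended without Panc02 1 or Panc02 2, and was lower with the female donor (-0.18). Its donor call ended without female 1, male 4 or male 5. Gsdmd, included only through co-culture, was called higher with the female donor, and this call ended in 5 of the fits that leave out 1 library. Spp1 was lower with the female donor, by 0.23 on the log2 scale (SE 0.03, adjusted p = 0.000525), and that call was kept in every fit that leaves out 1 library.

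Some members have values that bear on what the rule can separate. Gzmc, a granzyme gene of NK cells, passed the rule at 6.26, 7.05, 1.08 and 2.52 CPM in co-culture and 0 in Panc02 (at least 132-fold higher), against 2.50 CPM in NK monoculture. It differed by donor, at 1.83 ± 0.30 (adjusted p = 0.00306). Lars2, a mitochondrial tRNA synthetase gene, stood at 422, 515, 427 and 513 CPM in co-culture, 89.2 and 89.8 CPM in Panc02 and 512 CPM in NK monoculture, and Gm15564 at 65.8, 76.5, 64.6 and 70.3 CPM, 7.98 and 9.73 CPM and 75.6 CPM. The models ENSMUSG00002076809 and ENSMUSG00002075987, of 338 and 321 bases, reached 38.1 and 37.1 CPM in co-culture and under 1 CPM in Panc02. They are among the 10 largest rises by the naming rule with Iigp1, Tgtp2, Gbp6, Irgm2, Tgtp1, Gbp2, Igtp and Gm12185. For Lars2 and Gm15564 the co-culture level lay near that of NK monoculture, and the part of the library set in this was not tested.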

How the data were processed

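Whole-number counts per gene were deposited by the authors, not normalised. The submitters' processing notes name build GRCm39 and the tools featureCounts 2.0.6, SAMtools 1.19.2, HISAT2 2.2.1 and cutadapt 4.4. Per the file headers, exon reads of Ensembl genes were counted on the reverse strand, each mate of a pair on its own, with multi-mapping reads included. Per the labels' protocols, poly(A) RNA was enriched and stranded libraries were made.

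From these counts, CPM values were computed, and 6 libraries were fitted as 3 group means with edgeR 4.0.16 in R 4.3.3 (TMM scaling, filterByExpr, robust quasi-likelihood F-test; 18172 genes of 78298 in the table, 3 residual degrees of freedom). Co-culture is the mean of both donor groups. P-values were Benjamini-Hochberg adjusted over all genes tested at 0.05, and an SE is the log2 fold change over the square root of F. Fold changes use TMM scaling and so differ slightly from ratios of CPM. The procedure was checked on simulated counts. Libraries of a group differed beyond counting error (chi-square per gene 5.59 to 8.00).

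The members and the 37 gene lists were chosen with earlier results of these data known. Named genes are the 10 largest called rises and falls (at least 5 CPM, no overlap between groups), up to 4 genes per list and direction, fixed genes, 5 genes per direction for donor sex, and those stated as picked later. Some genes of these lists are not reported here. The NK share of a library is the median ratio of co-culture to monoculture CPM over genes with at least 20 CPM in NK monoculture and at most 0.05 CPM in Panc02. Of the IDs in the table, 51498 matched a symbol in GENCODE M21 or RefSeq tables. Alternatives were other scalings, DESeq2 1.42.0, no filter, 1 co-culture group, a replicate block, lower NK limits, subtraction of the NK share and leaving out each library. The block fits each replicate number apart. No other library shares the number of a male-donor library, so its contrast compares female-donor with Panc02 libraries only.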

Additional observations from a re-analysis of the deposited data

Results flagged for a closer look

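The 10 results here are members whose level differed between female-donor and male-donor co-cultures by edgeR's quasi-likelihood test of that difference, 5 in each direction by smallest p, all on the log2 scale (female minus male). Irf1 (0.78), Psme2 (0.56) and Tapbp (0.63) are interferon genes included only through co-culture, and were higher with the female donor. Gm10736 (0.90), a model of 78 bases on chromosome 13, stood at 156 and 164 CPM with the female donor, 88.8 and 79.3 CPM with the male donor and 147 and 169 CPM in Panc02. Gm10180 (1.11), also of 78 bases, stood at 21.7 and 21.1 CPM with the female donor, 9.23 and 10.2 CPM with the male donor and 25.4 and 27.9 CPM in Panc02. For these 2 models the male-donor libraries were the ones that stood apart from Panc02.

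Lower with the female donor were Spp1 (-0.23), Npm1 (-0.18), Gm13690 (-0.65), Ube2n-ps1 (-0.57) and Akirin2 (-0.33). Npm1, a nucleolar chaperone gene, stood at 1244 and 1307 CPM with the female donor, 1416 and 1424 CPM with the male donor and 1284 and 1283 CPM in Panc02. The calls of Npm1, Gm13690, Ube2n-ps1 and Akirin2 ended in 2 to 4 of the fits that leave out 1 library, and that of Spp1 was kept in all of them.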

How the results depend on the processing

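The number of members called between co-culture and Panc02 was 2083, and 899 with the NK limit at 0.5; leaving out single libraries gave 707 to 2292, with 707 without Panc02 1 and 1018 without Panc02 2. At least 2-fold, 278 were called (124 higher, 154 lower), 165 with a replicate block (100 higher, 65 lower) and 126 with the NK limit at 0.5 (39 and 87), and leaving out single libraries gave 108 to 360. Between donors 60 members were called (37 higher with the female donor, 23 lower), 171 without a filter on low counts, 27 with the NK share subtracted (24 and 3), 35 with the NK limit at 1 (15 and 20), 19 with it at 0.5 (7 and 12), 59 with median-ratio scaling (43 and 16), 61 with TMM over members (49 and 12) and 32 to 126 leaving out single libraries (14 and 28 without male 5). Some differences of co-culture over Panc02 changed sign, at an adjusted p above 0.05 after the change. Tnfrsf10b came to 0.004962 with TMM over members, 0.0316 with the NK share subtracted and -0.0986 to 0.0921 leaving out single libraries. With the replicate block Myc came to -0.000819, Jak2 to -0.0423, Akirin2 to -0.0474, Gm13690 to -0.190 and Gm10736 to 0.0581. Leaving out single libraries gave -0.0233 to 0.0646 for Myc, -0.002245 to 0.0573 for Jak2 and -0.0961 to 0.378 for Gm13690. Replicate numbers shared by female-donor and Panc02 libraries did not pair them (correlation of deviations 0.0266 over 2 pairs). With the block, 20 of the named results fell short of the threshold; the cause was not tested. Depth limits genes under about 1 CPM, such as Osmr and Casp12.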

Other observations

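Some members of low level belong in no comparison above. Complement genes included only through co-culture were C1s1 (0.379, 0.299, 0.0291 and 0.197 CPM in co-culture and 0 in Panc02), C1ra (0.557, 0.470, 0.146 and 0.263 CPM, and 0.149 and 0.214 CPM in Panc02) and C4b (0.914, 0.684, 0.349 and 0.241 CPM, and 0.0427 and 0.142 CPM in Panc02). Apol6, an apolipoprotein L gene, stood at 3.59, 1.73, 1.48 and 0.963 CPM in co-culture and 0 in Panc02, at least 58.2-fold higher, and at 0.0225 CPM in NK monoculture.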
